A study of Homo sapiens with 21 samples.

Results

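Imprinted genes are a set of 38 genes listed by symbol, and all 38 matched a gene ID among the 62699 genes of the count table. Their expression was compared between 4 genotypes and 2 vectors in islets differentiated from H1, an established human embryonic stem cell line. The genotypes were unedited cells (WT) and cells with the genotype ISL1-/-, PAX6-/- or PDX1-/-, each lacking a transcription factor of pancreatic endocrine cells. Every culture received a lentivirus on day 11, which carried either ISL1 together with blue fluorescent protein (ISL1-IRES2-BFP, called the ISL1 vector) or the fluorescent protein by itself (the BFP vector), and BFP+ cells were sorted on day 18. WT had 2 libraries with either vector, ISL1-/- and PAX6-/- had 3 with either vector, and PDX1-/- had 3 with BFP and 2 with ISL1, 21 in all. The replicates are biological replicates per the series' design text. How many edited clones stand behind each genotype is not given in the sources used here, so genotype and clone cannot be told apart, and cells that did not take up the virus were sorted away in all groups.

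Genomic imprinting marks an allele in the germ line of 1 parent, mostly by DNA methylation, so that in many tissues only the maternal or only the paternal copy is transcribed. The marks sit at imprinting control regions that govern clusters of neighbouring genes, and ZFP57, a zinc-finger protein that binds a methylated hexamer, helps to keep them after fertilisation. Cultured human pluripotent stem cells are known to gain or lose such marks, and lines or clones can differ in them. In the pancreas, several imprinted genes act on endocrine growth: overexpression of PLAGL1 and HYMAI causes transient neonatal diabetes, CDKN1C restrains the division of endocrine cells, and IGF2 is a fetal growth factor of islets. The counts do not separate alleles, so every value below is the sum of both copies. In bulk samples, fewer cells of a type and less RNA per cell cannot be told apart.

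Windows of 250 bases upstream of RefSeq starts (GRCh38.p14) are shown for the genes on which the results turn: the PLAGL1 and HYMAI pair, NLRP2, H19 and MEG3. Capitals mark CG dinucleotides, the sites of DNA methylation. PLAGL1 (chr6:143940300-144064599, minus strand) has 5 listed starts, and 1 of them is also the start of HYMAI (chr6:144004916-144008262, minus strand), a non-coding RNA within PLAGL1. The shared window is chr6:144008260-144008509 and the window of the most upstream start is chr6:144064600-144064849, both read on the minus strand. NLRP2 (chr19:54953130-55001142, plus strand) is shown at chr19:54965034-54965283, H19 (chr11:1995166-2004552) at chr11:2001267-2001516 on the minus strand, and MEG3 (chr14:100779410-100861031) at chr14:100825858-100826107 on the plus strand.
PLAGL1 and HYMAI shared start: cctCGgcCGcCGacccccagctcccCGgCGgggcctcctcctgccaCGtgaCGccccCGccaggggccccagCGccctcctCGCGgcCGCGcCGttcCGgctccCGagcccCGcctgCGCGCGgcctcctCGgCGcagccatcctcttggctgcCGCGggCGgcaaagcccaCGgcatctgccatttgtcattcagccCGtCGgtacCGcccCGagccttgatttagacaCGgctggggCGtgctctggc
PLAGL1 upstream start: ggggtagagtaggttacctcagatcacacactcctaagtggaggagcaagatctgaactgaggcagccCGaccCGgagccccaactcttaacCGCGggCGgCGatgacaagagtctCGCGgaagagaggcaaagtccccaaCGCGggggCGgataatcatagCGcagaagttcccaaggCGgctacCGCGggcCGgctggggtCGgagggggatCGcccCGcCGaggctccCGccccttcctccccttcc
NLRP2: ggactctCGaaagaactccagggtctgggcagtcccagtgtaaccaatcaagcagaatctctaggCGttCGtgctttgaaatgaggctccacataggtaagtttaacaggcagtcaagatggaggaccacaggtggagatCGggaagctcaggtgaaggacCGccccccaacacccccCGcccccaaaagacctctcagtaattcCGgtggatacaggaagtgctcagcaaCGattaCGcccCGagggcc
H19: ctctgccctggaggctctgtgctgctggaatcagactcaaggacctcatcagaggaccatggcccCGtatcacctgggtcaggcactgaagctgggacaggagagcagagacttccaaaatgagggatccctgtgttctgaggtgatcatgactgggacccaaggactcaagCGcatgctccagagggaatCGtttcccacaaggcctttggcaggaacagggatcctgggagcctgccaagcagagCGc
MEG3: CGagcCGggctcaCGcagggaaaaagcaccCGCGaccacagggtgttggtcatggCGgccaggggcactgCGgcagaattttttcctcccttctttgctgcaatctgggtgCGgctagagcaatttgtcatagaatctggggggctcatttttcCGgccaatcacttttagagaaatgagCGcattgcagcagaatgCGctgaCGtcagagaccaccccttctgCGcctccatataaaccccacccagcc

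The shared PLAGL1 and HYMAI window held 32 CG dinucleotides and the upstream PLAGL1 window 21, against a median of 11 over all 35116 RefSeq windows of the same length. NLRP2 had 10, MEG3 13 and H19 4. The hexamer bound by ZFP57, TGCCGC, was searched on both strands and each strand's match was counted. It occurred 2 times in the shared PLAGL1 and HYMAI window, 1 time in the MEG3 window and 0 times in those of NLRP2, H19 and the upstream PLAGL1 start. Of all windows, 12.7% held it. These windows were matched by letters only. DLK1, IGF2, KCNQ1OT1, CDKN1C, PHLDA2, SLC22A18, PEG3, ZIM2, PEG10, SGCE, NNAT and MEG8 were not in the sequence table.

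Libraries held 36.8 to 60.2 M counts, where M is the mega prefix, with a median of 50.4 M. Of the edited genes, ISL1 was 71.6 to 96.8 CPM (the count scaled to a library of 1 M) in the 6 ISL1-/- libraries and 125.5 to 519 in the rest. PAX6 was 94.9 to 318 CPM in PAX6-/- against 71.4 to 232 elsewhere, and PDX1 80.5 to 138 in PDX1-/- against 63.3 to 114 elsewhere, so these RNAs overlapped. Gene-level counts cannot show a small edit and so do not check the PAX6-/- and PDX1-/- labels. The ISL1 vector did not show either: ISL1 in WT was 306 and 519 CPM with BFP and 361 and 337 with ISL1. Replicate 3 of PAX6-/- with ISL1 and replicate 4 of PDX1-/- with ISL1 stood apart from the rest of their groups, with 3.17% and 3.84% of counts on mitochondrially encoded genes against 1.28 to 1.93% in the other 19 libraries. Replicate 4 of PDX1-/- with ISL1 was also unlike the other edited libraries: LINC02864, a non-coding RNA that was 18.1 to 23.7 CPM in WT and at most 0.104 CPM in the other edited libraries, was 24.96 CPM there. INS, the insulin gene, was 25612 CPM there and 164 in its partner, against 5651 to 8382 in WT. Its PLAGL1, at 40.4 CPM, lay below the lowest WT library, at 86.5. Whether its label is right was not tested. Results that rest on either library are given with and without it. Leaving out replicate 4 leaves 1 library, replicate 2, for PDX1-/- with ISL1, so the test then takes its spread from the other groups and assumes that the lone library varies like them. The summed level of alpha-cell markers, all 12 of them above 3 counts, was 37874 to 59332 CPM in WT, 4304 to 8620.2 in ISL1-/-, 2785 to 11717 in PAX6-/- and 22281 to 28150.0 in PDX1-/- with BFP. In PDX1-/- with ISL1 it was 17069 and 126770.0 CPM, the higher value from replicate 4.

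Counts were high enough to test 32 of the 38. Per kilobase of exon, NNAT, encoding the small membrane protein neuronatin, had the highest median over the libraries at 264 CPM, followed by NDN, encoding necdin, at 82.5, CDKN1C at 56.1, GNAS at 56.0 and MEST at 55.0. The untested 6 were at or near 0 in every group. MEG3, MEG8 and RTL1, the non-coding and retrotransposon-derived genes beside DLK1 on chromosome 14, had 0 to 10, 0 to 10 and 0 to 9 counts per library. MKRN3 on chromosome 15 had 0 to 13 counts, PEG3 on chromosome 19 had 1 count in 1 of 21 libraries, and its overlapping neighbour ZIM2 had 0 in all, which allows up to 3 counts per library.

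**Figure D1:**
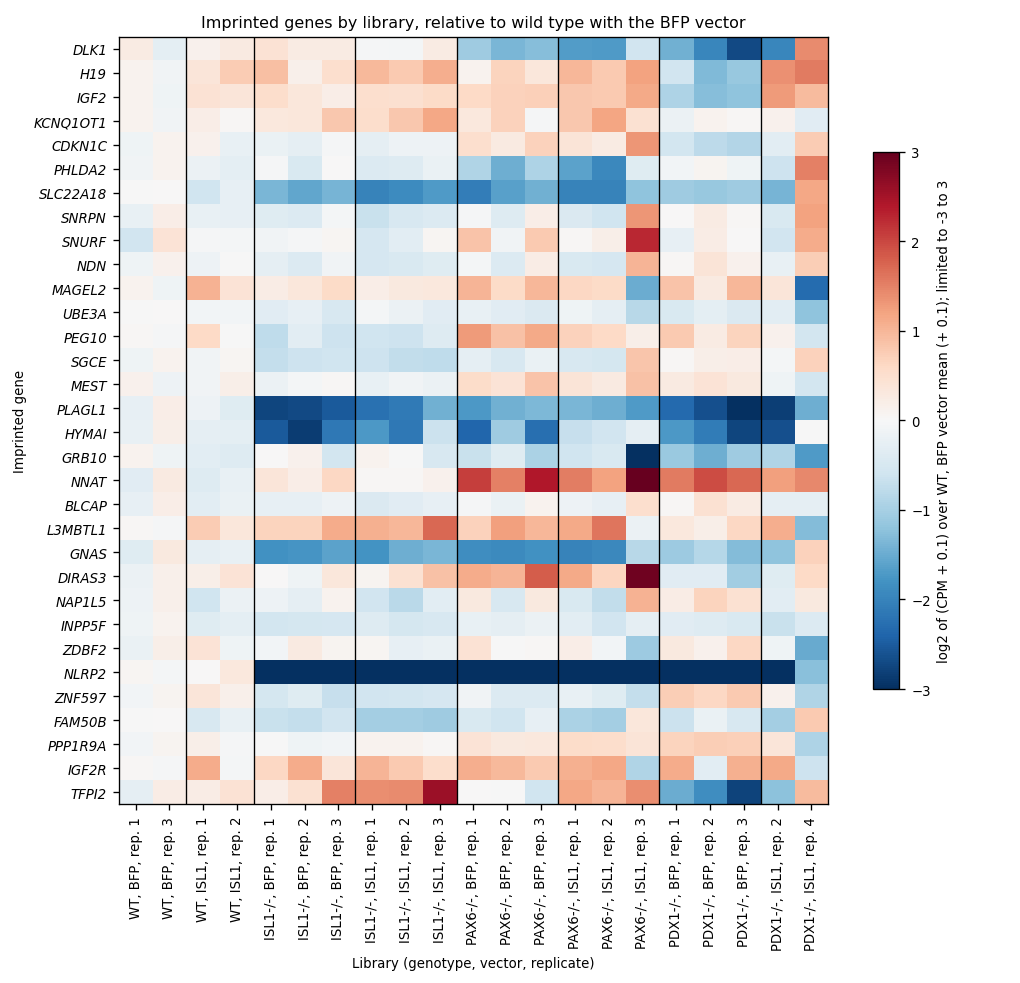
Each row is 1 of the 32 tested imprinted genes and each column 1 of 21 libraries. Colour shows log2 of CPM (plus 0.1) over the mean of WT with BFP (plus 0.1), limited to -3 to 3, and vertical lines divide the 8 groups. NLRP2 and PLAGL1 are blue in the edited genotypes, NNAT is red in PAX6-/- and PDX1-/-, and IGF2 and H19 are blue in PDX1-/- with BFP and red in PDX1-/- with ISL1.

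Against WT with BFP, 4 of 32 imprinted genes differed in ISL1-/- with BFP at an adjusted p under 0.05 (0 higher, 4 lower), where 5.59% of all 25884 genes did, 1.67% higher and 3.92% lower. In PAX6-/- with BFP 7 of 32 differed (3 higher, 4 lower), where 5.51% of all genes did, 2.25% higher and 3.26% lower. In PDX1-/- with BFP 8 of 32 differed (1 higher, 7 lower), where 9.68% of all genes did, 4.03% higher and 5.65% lower. The 3 comparisons share the WT libraries. The median log2 fold change of the imprinted genes was -0.13, -0.05 and -0.02 in ISL1-/-, PAX6-/- and PDX1-/-, against 0.02, 0.03 and 0.03 over all genes. With the ISL1 vector, against WT with ISL1, 2 imprinted genes differed in ISL1-/- (3.72% of all genes did), 3 in PAX6-/- (3.56%) and 1 in PDX1-/- (0.634%). A test of any difference among the 4 genotypes with BFP called 14 of 32 (13.5% of all genes). Without the 2 libraries that stood apart, when the count filter let 35 imprinted genes and 27284 genes in all through, these counts were 13, 20 and 19 with BFP, where 23.5%, 23.5% and 27.6% of all genes differed. They were 11, 12 and 8 with ISL1 (19.5%, 12.2% and 6.66% of all genes), the last with 1 PDX1-/- library, and 24 for any difference (40.7%).

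PLAGL1, a zinc-finger transcription factor, was lower in every edited library than in every WT library. With BFP it was 94.1 and 128 CPM in WT, 16.3, 16.8 and 19.4 in ISL1-/-, 33.4, 40.6 and 43.5 in PAX6-/- and 21.9, 17.8 and 12.0 in PDX1-/-. With ISL1 it was 100.4 and 86.5 in WT, 23.5, 25.5 and 41.1 in ISL1-/-, 42.5, 39.9 and 34.3 in PAX6-/- and 15.6 and 40.4 in PDX1-/-, the last value from replicate 4. The lowest WT library, at 86.5, lay above the highest edited library, at 43.5. With BFP, the log2 fold change against WT was -2.67 ± 0.34 (SE, adjusted p = 0.000192) in ISL1-/-, -1.50 ± 0.33 (adjusted p = 0.014) in PAX6-/- and -2.69 ± 0.34 (adjusted p = 0.000234) in PDX1-/-. Under the ISL1 vector it was -1.64 (adjusted p = 0.01), -1.26 (adjusted p = 0.0424) and -1.74 (adjusted p = 0.0441), in the same order. PLAGL1 was also lower in PDX1-/- than in PAX6-/- with BFP, by a log2 fold change of -1.19 ± 0.31 (adjusted p = 0.0416), a call lost when any library of either group was left out. The calls in ISL1-/- and PDX1-/- with BFP held whichever of their libraries was left out, while that in PAX6-/- was lost without its replicate 1 or without either WT library (adjusted p up to 0.167), and that in PAX6-/- with ISL1 without any of its 5 libraries (up to 0.27). In ISL1-/- with ISL1 the call was kept in 1 of 5 such fits. In PDX1-/- with ISL1 it was lost without any of 17 of the 21 libraries, most of them outside the comparison, and kept in 5 of 7 other tools and settings. Without the 2 libraries that stood apart, with 1 PDX1-/- library left, the log2 fold change was -2.58 (adjusted p = 0.00026).

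HYMAI, the non-coding RNA that starts at the shared window, was low throughout, with 13 to 106 counts per library. Under the BFP vector it was 2.13 and 2.84 CPM in WT, 0.354, 0.26 and 0.482 in ISL1-/-, 0.394, 1.14 and 0.435 in PAX6-/- and 0.685, 0.5 and 0.284 in PDX1-/-. The WT libraries were above all 9 edited ones. HYMAI fell in ISL1-/- (-2.75 ± 0.66, adjusted p = 0.0191) and PDX1-/- (-2.33 ± 0.65, adjusted p = 0.0301), and its log2 fold change in PAX6-/- was -1.91 ± 0.64 (adjusted p = 0.0958). In cultures given ISL1 it was 2.06 and 2.02 CPM in WT, 0.682, 0.482 and 1.55 in ISL1-/-, 1.51, 1.64 and 2.03 in PAX6-/- and 0.317 and 2.46 in PDX1-/-. There the groups overlapped for PAX6-/- and PDX1-/-, the latter through replicate 4, and none of the 3 comparisons passed the test. Without the 2 libraries that stood apart HYMAI was called in PAX6-/- with BFP (-1.91, adjusted p = 0.00654) and, with 1 library left, in PDX1-/- with ISL1 (-2.67, adjusted p = 0.0403). The call in ISL1-/- was lost when any of its 5 libraries was left out (adjusted p up to 0.131), and that in PDX1-/- in 4 of 5 such fits. PLAGL1 and HYMAI share 289 bases of exon on the same strand, 8.6% of HYMAI, so reads there cannot be assigned to either.

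NLRP2, an NLR-family gene expressed from the maternal allele, was detected clearly in WT and was near 0 in the edited genotypes. With BFP it had 180 and 121 counts in WT, 2, 2 and 3 in ISL1-/-, 0, 1 and 3 in PAX6-/- and 0, 2 and 0 in PDX1-/-. With ISL1 it had 184 and 230 in WT, 0, 12 and 8 in ISL1-/-, 0, 0 and 1 in PAX6-/- and 3 and 52 in PDX1-/-. The WT libraries were at 3.66 to 4.79 CPM, and no edited library exceeded 0.199 CPM except replicate 4 of PDX1-/- with ISL1, at 1.54 CPM. Against a floor of 3 counts per library, NLRP2 with BFP was at least 75.2-fold lower in ISL1-/- (adjusted p = 0.00136), at least 66.2-fold lower in PAX6-/- (adjusted p = 0.00174) and at least 62.9-fold lower in PDX1-/- (adjusted p = 0.00079). In the ISL1 vector groups it was at least 77.5-fold lower in PAX6-/- (adjusted p = 0.000863), and the log2 fold change was -5.19 ± 0.95 in ISL1-/- (adjusted p = 0.00506). In PDX1-/- with ISL1 it was -2.50 ± 0.96 (adjusted p = 0.292) with replicate 4 included. Without the 2 libraries that stood apart NLRP2 was called there, with 1 library left and the spread taken from the other groups.

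CHCHD2, a nuclear gene for a mitochondrial protein that is not imprinted, gave a further on and off difference between the lines. It was 129 to 147 CPM in the 6 ISL1-/- libraries and 0 to 0.212 CPM in the others, apart from 0.919 CPM in replicate 4 of PDX1-/- with ISL1. LINC02864, as given above, was present in the WT libraries and in replicate 4 of PDX1-/- with ISL1, which was also the edited library with the most NLRP2. Whether such differences come with the edit or with the line was not tested.

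**Figure D2:**
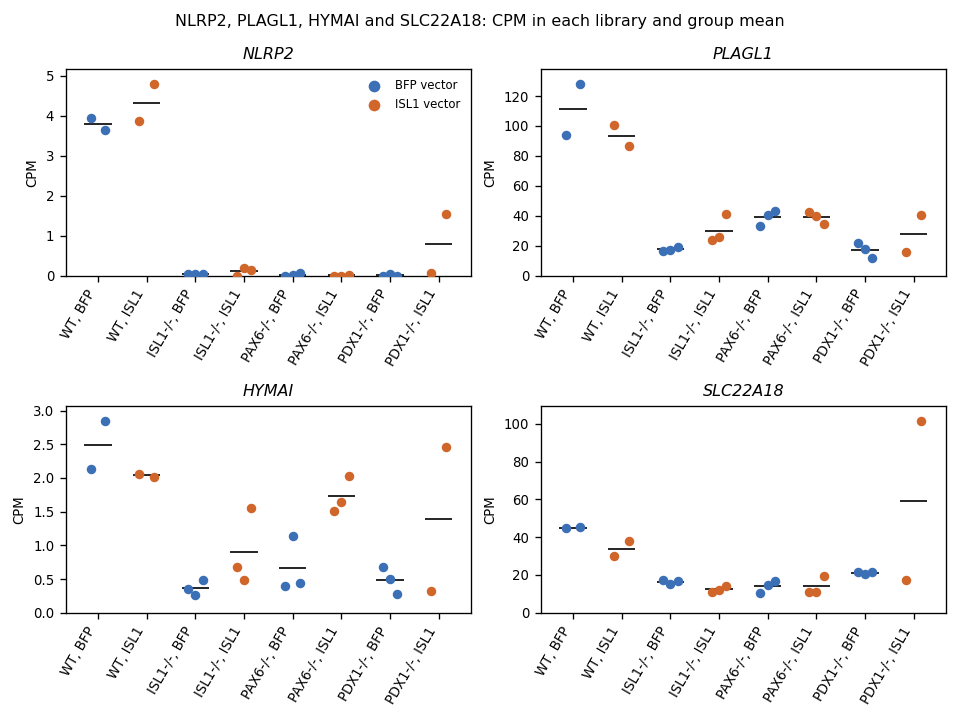
Points are CPM in each library and bars the group means for NLRP2, PLAGL1, HYMAI and SLC22A18, with genotype and vector on the horizontal axis. For PLAGL1 the 4 WT libraries, from 86.5 to 128 CPM, sit above all edited libraries, and the high PDX1-/- point with ISL1 in the NLRP2, HYMAI and SLC22A18 panels is replicate 4.

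The chromosome 11 imprinted cluster holds 2 domains. In the first, IGF2, a growth factor expressed from the paternal allele, lies beside H19, a maternally expressed long non-coding RNA. By group mean, IGF2 was lowest in PDX1-/- with BFP and highest in PDX1-/- with ISL1. In the BFP groups it was 145 and 123 CPM in WT, 192, 170.3 and 154 in ISL1-/-, 203, 217 and 222 in PAX6-/- and 70.9, 54.8 and 57.9 in PDX1-/-. With ISL1 it was 182 and 171 in WT, 189, 188 and 201 in ISL1-/-, 234, 230.0 and 293 in PAX6-/- and 328 and 259 in PDX1-/-. The 3 PDX1-/- libraries with BFP were below all other 18. Against WT with BFP, IGF2 fell in PDX1-/- (-1.13 ± 0.19, adjusted p = 0.0012), and this call held whichever of the 5 libraries was left out. It rose in PAX6-/- (0.67 ± 0.19, adjusted p = 0.0481), a call lost in all 5 such fits and without many libraries outside the comparison. This rise was called in 4 of 7 other tools and settings, and not with another size factor. Between the edited genotypes with BFP it was lower in PDX1-/- than in ISL1-/- (-1.49 ± 0.17, adjusted p = 8.29e-05) and than in PAX6-/- (-1.81 ± 0.17, adjusted p = 2.23e-05). Exons of other genes cover 44.4% of IGF2's exons. The largest overlap, 37.9%, is with a same-strand gene without a symbol that had 0 counts. IGF2-AS had 83 to 754 counts and INS-IGF2 0 or 1. How reads that match several genes were handled is not given, so IGF2 counts may lack reads from the shared exons.

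H19 moved in the same direction as IGF2 in PDX1-/-. With BFP it was 21.5 and 18.6 CPM in WT, 37.7, 22.1 and 28.6 in ISL1-/-, 21.6, 31.995 and 25.3 in PAX6-/- and 13.3, 7.97 and 9.11 in PDX1-/-. Under the ISL1 vector it was 25.9 and 33.8 in WT, 39.6, 34.5 and 42.9 in ISL1-/-, 40.0, 34.4 and 46.7 in PAX6-/- and 52.3 and 59.5 in PDX1-/-. The PDX1-/- libraries with BFP were again below all others, and those with ISL1 above all others. H19 fell in PDX1-/- with BFP against WT (-0.98 ± 0.26, adjusted p = 0.024), a call lost in 4 of 5 fits that left out a library. It was lower than in ISL1-/- (-1.54 ± 0.24, adjusted p = 0.00116) and PAX6-/- (-1.37 ± 0.24, adjusted p = 0.00303) in every such fit.

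**Figure D3:**
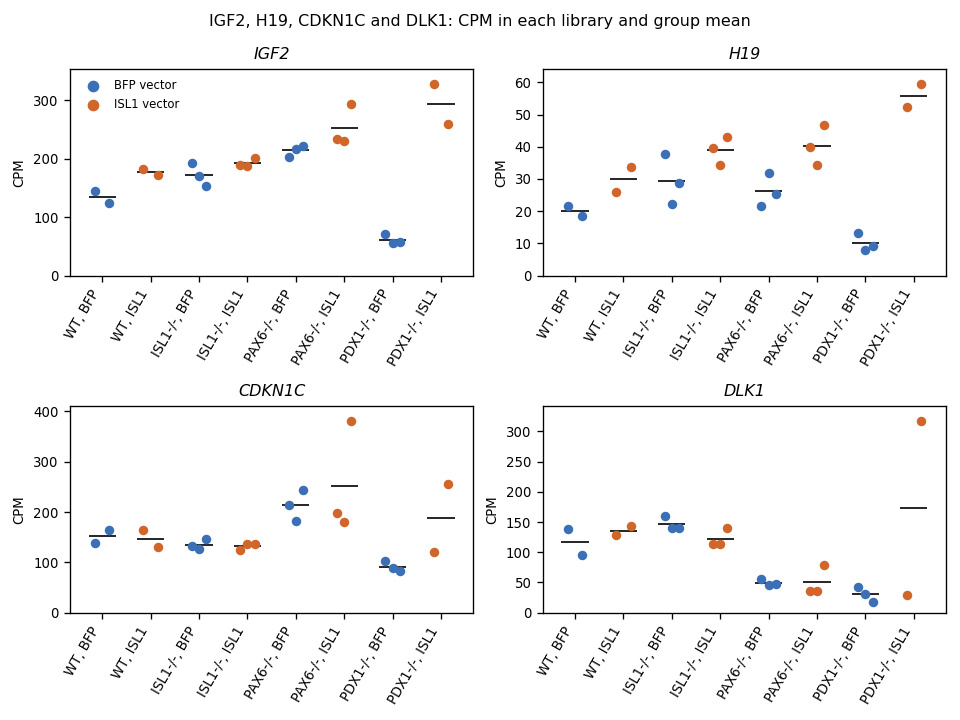
Points are CPM in each library and bars the group means for IGF2, H19, CDKN1C and DLK1. IGF2 is 54.8 to 70.9 CPM in PDX1-/- with BFP and 328 and 259 CPM in PDX1-/- with ISL1, and the high DLK1 point in PDX1-/- with ISL1, at 317 CPM, is replicate 4.

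The second domain on chromosome 11 holds CDKN1C, an inhibitor of cyclin-dependent kinases, the growth-restraining PHLDA2, the transporter SLC22A18 and the antisense RNA KCNQ1OT1. CDKN1C with BFP was 139 and 164 CPM in WT, 132, 126 and 147 in ISL1-/-, 214, 182 and 244 in PAX6-/- and 104, 88.1 and 82.9 in PDX1-/-. Its levels with ISL1 were 165 and 130.0 in WT, 125, 137 and 137 in ISL1-/-, 197, 181 and 380.4 in PAX6-/- and 121 and 256 in PDX1-/-. It was lower in PDX1-/- than in PAX6-/- with BFP (-1.22 ± 0.28, adjusted p = 0.0217), a call kept in 1 of 6 fits that left out a library. Against WT its log2 fold change was -0.73 ± 0.31 in PDX1-/- (adjusted p = 0.157) and 0.49 ± 0.31 in PAX6-/- (adjusted p = 0.442). Both differences from WT were called without the 2 libraries that stood apart. The PDX1-/- libraries with BFP were the 3 lowest of the 21.

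SLC22A18 with BFP was 44.9 and 45.2 CPM in WT, 17.2, 15.2 and 17.0 in ISL1-/-, 10.6, 14.5 and 16.6 in PAX6-/- and 21.5, 20.4 and 21.3 in PDX1-/-. In cultures given ISL1 it was 29.9 and 37.8 in WT, 11.1, 12.1 and 13.9 in ISL1-/-, 11.2, 11.2 and 19.6 in PAX6-/- and 17.1 and 101 in PDX1-/-. All edited libraries except replicate 4 of PDX1-/- with ISL1 were below all WT libraries. The fall passed the test in PAX6-/- with BFP (-1.70 ± 0.44, adjusted p = 0.0318) but not in ISL1-/- (-1.45 ± 0.44, adjusted p = 0.0647) or PDX1-/- (-1.10 ± 0.44, adjusted p = 0.137). The PAX6-/- call was lost in all 5 fits that left out a library of its groups (adjusted p up to 0.166). SLC22A18 passed in all 6 comparisons with WT once the 2 libraries that stood apart were left out, in 1 of them with a single PDX1-/- library. KCNQ1OT1, at 28.6 to 82.0 CPM, and PHLDA2, at 6.06 to 67.1 CPM, passed no test with all libraries. KCNQ1OT1 with BFP was 38.7 and 33.5 CPM in WT, 45.1, 45.9 and 63.4 in ISL1-/-, 45.4, 58.5 and 35.0 in PAX6-/- and 31.9, 38.7 and 37.3 in PDX1-/-. Its levels with ISL1 were 41.8 and 36.9 in WT, 52.3, 63.1 and 80.4 in ISL1-/-, 63.1, 82.0 and 49.6 in PAX6-/- and 39.8 and 28.6 in PDX1-/-.

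On chromosome 14, DLK1, a membrane protein related to the NOTCH ligands and expressed from the paternal allele, was well expressed. Its neighbours MEG3, MEG8 and RTL1 were not. DLK1 with BFP was 139 and 96.1 CPM in WT, 159.9, 140.0 and 140.4 in ISL1-/-, 56.0, 45.3 and 48.3 in PAX6-/- and 43.1, 30.3 and 18.1 in PDX1-/-. In the ISL1 vector groups it was 129 and 143 in WT, 114, 113 and 140.3 in ISL1-/-, 36.5, 36.4 and 79.4 in PAX6-/- and 30.1 and 317 in PDX1-/-. ISL1-/- overlapped or exceeded WT, and PAX6-/- and PDX1-/- were below WT in every library but replicate 4 of PDX1-/- with ISL1. The fall in PDX1-/- with BFP passed the test (-1.95 ± 0.58, adjusted p = 0.0415) but in no fit that left out 1 of its 5 libraries, and PAX6-/- with BFP gave -1.24 ± 0.58 (adjusted p = 0.251). DLK1 was also lower in PDX1-/- than in ISL1-/- with BFP (-2.27 ± 0.55, adjusted p = 0.0214), in 2 of 6 such fits. Without the 2 libraries that stood apart it was called in PAX6-/- against WT with either vector and in PDX1-/- with either vector, the ISL1 vector with 1 library. MEG3, a maternally expressed long non-coding RNA, had 1 and 0 counts in WT with BFP and 10 and 2 in WT with ISL1. It had 0 counts in all 9 edited libraries with BFP and in the 3 of PAX6-/- with ISL1, and 2, 5 and 6 in ISL1-/- and 2 and 2 in PDX1-/- with ISL1. MEG8 and RTL1 stayed as low, at up to 0.18 and 0.198 CPM.

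NNAT, which lies in an intron of BLCAP on chromosome 20, was higher in PAX6-/- and PDX1-/-. Under the BFP vector it was 121 and 185 CPM in WT, 197, 174 and 234 in ISL1-/-, 639.6, 434 and 808 in PAX6-/- and 451, 591 and 504 in PDX1-/-. With ISL1 it was 117 and 131 in WT, 158, 158 and 168 in ISL1-/-, 442, 350.4 and 1609 in PAX6-/- and 359.9 and 414 in PDX1-/-. All 11 PAX6-/- and PDX1-/- libraries were above all WT and ISL1-/- libraries, and replicate 3 of PAX6-/- with ISL1 was the highest. With BFP it rose in PAX6-/- (2.04 ± 0.49, adjusted p = 0.0208) and PDX1-/- (1.75 ± 0.48, adjusted p = 0.0273), and it was higher in PAX6-/- than in ISL1-/- (1.63 ± 0.41, adjusted p = 0.0413). Each of these calls was kept in only 1 of the fits that left out a library of its groups. With ISL1 it rose in PAX6-/- by a log2 fold change of 2.69 ± 0.50 (adjusted p = 0.00589). This was 1.65 without the 2 libraries that stood apart, and the call was lost without either WT library with ISL1. In PDX1-/- with ISL1 the log2 fold change was 1.64 ± 0.51 (adjusted p = 0.191). BLCAP, at 35.9 to 69.1 CPM, passed no test with all libraries.

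PEG10, a retrotransposon-derived gene on chromosome 7 expressed from the paternal allele, was highest in PAX6-/- with BFP. In the BFP groups it was 210.0 and 200.4 CPM in WT, 122, 165 and 134 in ISL1-/-, 496, 375 and 454 in PAX6-/- and 353, 243 and 324 in PDX1-/-. Under the ISL1 vector it was 309 and 202 in WT, 136, 133 and 158 in ISL1-/-, 332, 310.3 and 231 in PAX6-/- and 225 and 139 in PDX1-/-. All 6 ISL1-/- libraries were below every WT library, and with BFP the log2 fold change was -0.55 ± 0.25 (adjusted p = 0.246). Without the 2 libraries that stood apart, PEG10 was called in ISL1-/- against WT with either vector. It rose in PAX6-/- with BFP against WT (1.11 ± 0.27, adjusted p = 0.0213), a call kept in 1 of 5 fits that left out a library. It was higher in PAX6-/- than in ISL1-/- (1.66 ± 0.23, adjusted p = 0.000504), in every fit that left out a library, and higher in PDX1-/- than in ISL1-/- (1.13 ± 0.23, adjusted p = 0.008), in 5 of 6. Its divergent neighbour SGCE, at 28.04 to 85.2 CPM, passed no test with all libraries.

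GNAS, which encodes the stimulatory G-protein alpha subunit and is imprinted for some of its isoforms, was the most abundant of the set in CPM. With BFP it was 2509 and 3967 CPM in WT, 915, 956 and 1069.5 in ISL1-/-, 896, 857 and 919.9 in PAX6-/- and 1510.0, 1802 and 1307 in PDX1-/-. In cultures given ISL1 it was 2706 and 2767 in WT, 937, 1177 and 1244 in ISL1-/-, 805, 846 and 1813 in PAX6-/- and 1401 and 5270.3 in PDX1-/-. Apart from replicate 4 of PDX1-/- with ISL1, every edited library was below every WT library. GNAS fell with BFP in ISL1-/- (-1.72 ± 0.41, adjusted p = 0.0174) and PAX6-/- (-1.86 ± 0.41, adjusted p = 0.0126), and in PDX1-/- its log2 fold change was -1.07 ± 0.40 (adjusted p = 0.11). The PDX1-/- difference was called without the 2 libraries that stood apart (adjusted p = 5.87e-05). The ISL1-/- call was kept in 1 of 5 fits that left out a library and the PAX6-/- call in 2 of 5. Beta-cell markers, 11 in all, summed to 8651 to 9449 CPM in WT with BFP, 3078 to 3519.9 in ISL1-/-, 1627 to 2246 in PAX6-/-, where G6PC2 was at or under 3 counts, and 2142 to 2231 in PDX1-/-. INS alone averaged 6418 CPM in WT with BFP and 2115, 792.5 and 146 in ISL1-/-, PAX6-/- and PDX1-/- with BFP, so it weighed heavily in these sums. Of the 11 markers, 1 was called higher and 4 lower in ISL1-/-, 0 and 5 in PAX6-/-, and 2 and 6 in PDX1-/-. The part of these marker differences in the GNAS, PLAGL1 and SLC22A18 results was not tested.

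TFPI2, a serine protease inhibitor on chromosome 7, was low in PDX1-/- with BFP. Under the BFP vector it was 12.4 and 17.4 CPM in WT, 17.2, 20.5 and 42.4 in ISL1-/-, 14.9, 14.7 and 9.82 in PAX6-/- and 5.26, 4.02 and 2.08 in PDX1-/-. In the ISL1 vector groups it was 17.4 and 20.1 in WT, 39.3, 39.7 and 89.4 in ISL1-/-, 33.4, 30.2 and 39.4 in PAX6-/- and 6.28 and 28.8 in PDX1-/-. The PDX1-/- libraries with BFP were the 3 lowest of the 21. TFPI2 fell there against WT (-1.98 ± 0.53, adjusted p = 0.0256) and was lower than in ISL1-/- (-2.82 ± 0.51, adjusted p = 0.00342), the latter in every fit that left out a library. The call against WT was kept in 1 of 5 such fits. The summed level of 12 mesenchymal markers was 198 to 912 CPM in PDX1-/- with BFP, 402 to 1414 in WT with BFP and 324 to 554 in ISL1-/- with BFP, and its part was not tested.

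**Figure D4:**
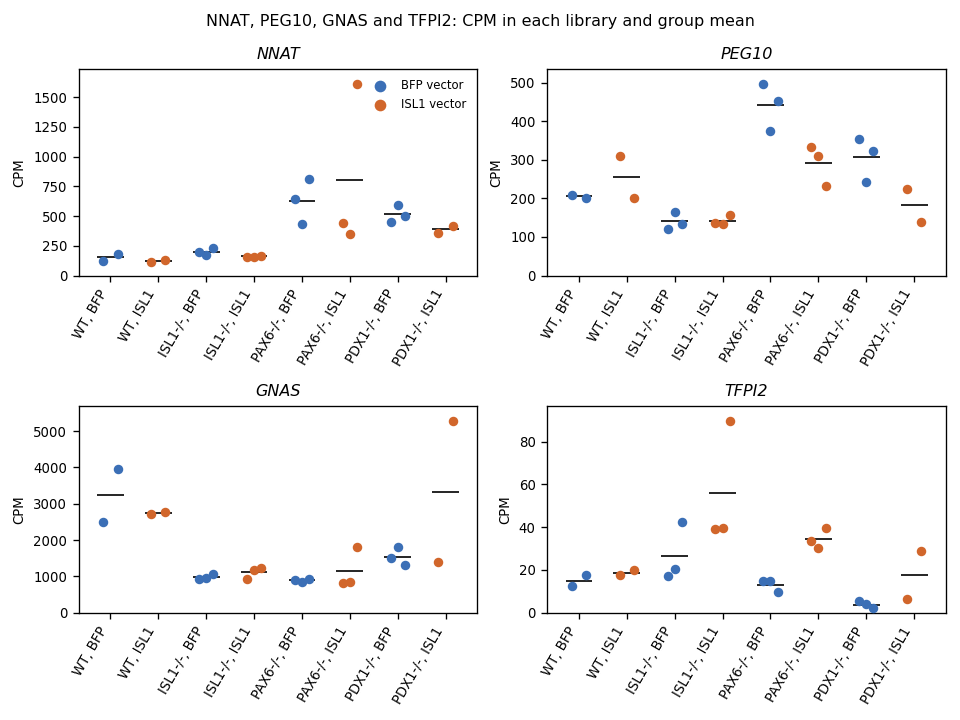
Points are CPM in each library and bars the group means for NNAT, PEG10, GNAS and TFPI2. NNAT is 350.4 CPM or more in all PAX6-/- and PDX1-/- libraries, and the high GNAS point in PDX1-/- with ISL1, at 5270.3 CPM, is replicate 4.

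Among the edited genotypes with BFP, 2 of 32 imprinted genes differed between PAX6-/- and ISL1-/- (2.46% of all genes did), 6 between PDX1-/- and ISL1-/- (5.07%) and 6 between PDX1-/- and PAX6-/- (3.04%), and without the 2 libraries that stood apart the counts were 9, 16 and 15 (8.74%, 21.7% and 16.3% of all genes). Besides the genes described, those called with all libraries were DIRAS3 and ZNF597. DIRAS3, a RAS-family GTPase, was 3.60 and 4.56 CPM in WT, 4.09, 3.74 and 5.16 in ISL1-/-, 8.90, 8.36 and 14.6 in PAX6-/- and 3.22, 3.18 and 1.92 in PDX1-/- with BFP. The corresponding levels with ISL1 were 4.64 and 5.46 in WT, 4.33, 5.60 and 7.60 in ISL1-/-, 9.12, 6.40 and 31.7 in PAX6-/- and 3.16 and 6.28 in PDX1-/-. It was lower in PDX1-/- than in PAX6-/- with BFP (-1.94 ± 0.47, adjusted p = 0.0308), a call lost without any of the 6 libraries. ZNF597, a zinc-finger gene expressed from the maternal allele, was 6.22 and 6.89 CPM in WT, 4.55, 5.04 and 4.00 in ISL1-/-, 6.04, 4.95 and 4.88 in PAX6-/- and 11.0, 10.1 and 11.3 in PDX1-/- with BFP. The corresponding levels with ISL1 were 8.46 and 7.25 in WT, 4.37, 4.42 and 4.61 in ISL1-/-, 5.62, 5.07 and 3.94 in PAX6-/- and 7.18 and 3.47 in PDX1-/-. Its 3 PDX1-/- libraries with BFP were the highest of all 21. It was higher there than in ISL1-/- (1.25 ± 0.23, adjusted p = 0.00427) and PAX6-/- (1.03 ± 0.23, adjusted p = 0.0201), the first in all 6 fits that left out a library and the second in 1 of 6.

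The vector comparisons set the ISL1 vector against BFP within a genotype, and by edgeR with all libraries only PDX1-/- had calls among the imprinted genes. In WT 0 of 32 passed the edgeR test (0.027% of all genes did), and 0 did at an unadjusted p under 0.05, by DESeq2 or by limma voom. In ISL1-/- 0 passed (0.382% of all genes), with 3 at an unadjusted p under 0.05, 0 by DESeq2 and 2 by limma voom. In PAX6-/- 0 passed (0.355% of all genes), with 4 at an unadjusted p under 0.05, 0 by DESeq2 and 8 by limma voom. In PDX1-/- 9 passed, 7 higher and 2 lower, where 12.5% of all genes did, 8.19% higher and 4.33% lower, with 13 by DESeq2, 1 by limma voom and 0 in the fit on the compared groups alone. With the ISL1 vector IGF2 rose by 2.26 ± 0.19 on the log2 scale (adjusted p = 5.9e-06) and H19 by 2.46 ± 0.27 (adjusted p = 7.05e-05). Both remained called whichever of the 5 libraries was left out, including with 1 ISL1 vector library. H19 was called in 5 of 7 other tools and settings, not by limma voom (adjusted p = 0.203), and IGF2 in 6 of 7, and neither on the compared groups alone (adjusted p = 0.201 for both). The 7 others were lost without replicate 4: TFPI2 (2.21), CDKN1C (1.04), SLC22A18 (1.49), DLK1 (2.51) and NLRP2 (at least 13.2-fold higher) among the higher, and ZNF597 (-1.01) and PPP1R9A (-0.85) among the lower. PPP1R9A, an actin-binding protein gene, was 50.7, 53.4 and 52.3 CPM with BFP and 41.0 and 16.9 with ISL1.

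The interaction terms ask whether the vector acted differently in an edited genotype than in WT. For ISL1-/- 0 of 32 imprinted genes passed the edgeR test (0.00386% of all genes did) and for PAX6-/- 0 (0% of all genes), with 1 each at an unadjusted p under 0.05 and 0 by DESeq2 or limma voom. For PDX1-/- 2 passed (1.19% of all genes), IGF2 at 1.86 ± 0.28 (adjusted p = 0.00413) and H19 at 1.89 ± 0.39 (adjusted p = 0.0263). IGF2 was called in 6 of 7 other tools and settings and H19 in 4 of 7. The same genes passed without the 2 libraries that stood apart, with 1 PDX1-/- library on the ISL1 side, at 2.05 (adjusted p = 2.98e-05) and 1.82 (adjusted p = 0.0153), where 2.36% of all genes passed. Without replicate 4 only, or without any of 6 other libraries, H19 was lost (adjusted p up to 0.259), and IGF2 was lost without replicate 1 of WT with ISL1 (adjusted p = 0.0708). Marker levels also differed between the PDX1-/- groups: 7 enterochromaffin markers summed to 4042 to 4658 CPM with BFP and 1418 and 1463 with ISL1, and pancreatic progenitor and duct markers to 675 to 778 with BFP and 1367 and 3115 with ISL1. Of 8 hepatic and gut markers, 5 were higher in the PDX1-/- vector comparison and 5 in the interaction, and they summed to 1847 to 2153 CPM with BFP and 2963 and 12457 with ISL1, the last in replicate 4. Their part in the IGF2 and H19 results was not tested.

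Of the 32 tested genes, 17 passed none of the 16 pairwise and interaction tests with all libraries. Without the 2 libraries that stood apart, 12 of these 17 passed at least 1 of them, and SNRPN, SNURF, IGF2R, NAP1L5 and ZDBF2 passed none. On chromosome 15 the 17 held SNRPN, SNURF, NDN, MAGEL2 and UBE3A. SNRPN, which encodes a splicing protein, was 65.7 and 88.4 CPM in WT, 60.2, 57.8 and 74.3 in ISL1-/-, 75.0, 59.0 and 88.3 in PAX6-/- and 77.9, 91.9 and 79.2 in PDX1-/- with BFP. The corresponding levels with ISL1 were 65.7 and 64.9 in WT, 48.3, 55.4 and 58.3 in ISL1-/-, 56.9, 50.6 and 194 in PAX6-/- and 56.5 and 179 in PDX1-/-. Its edited groups with BFP each overlapped WT, while with ISL1 the ISL1-/- libraries were below both WT libraries. The values above 100 came from the 2 libraries that stood apart. SNURF shares 52.1% of its exon bases with SNRPN, so reads could be split between them. UBE3A, a ubiquitin ligase expressed from the maternal allele in neurons, was 79.2 to 183 CPM. MEST, a hydrolase-fold protein gene, was 262 and 216 CPM in WT, 211, 229.9 and 243 in ISL1-/-, 352, 319 and 435 in PAX6-/- and 287, 318 and 292 in PDX1-/- with BFP. The corresponding levels with ISL1 were 222 and 270.4 in WT, 206, 221 and 213 in ISL1-/-, 313, 287 and 436 in PAX6-/- and 220.0 and 164 in PDX1-/-.

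GRB10, an adaptor of the insulin and IGF1 receptors, was 393 and 332 CPM in WT, 368, 394 and 249 in ISL1-/-, 229.8, 282 and 188 in PAX6-/- and 169, 131 and 173 in PDX1-/- with BFP. The corresponding levels with ISL1 were 290.3 and 275 in WT, 389, 361 and 261 in ISL1-/-, 241, 265 and 41.0 in PAX6-/- and 193 and 112 in PDX1-/-. PDX1-/- and PAX6-/- with BFP were below WT in every library, and the log2 fold changes were -1.20 ± 0.48 (adjusted p = 0.133) and -0.64 ± 0.48 (adjusted p = 0.54). Both were called without the 2 libraries that stood apart (adjusted p = 0.000282 and 0.0327). IGF2R, the receptor that clears IGF2, was split within some groups: it was 241 and 108 CPM in WT with ISL1 and 243, 89.1 and 236 in PDX1-/- with BFP. In WT with BFP it was 114 and 109.5 CPM. The remaining genes uncalled with all libraries were KCNQ1OT1, PHLDA2, SGCE, BLCAP, L3MBTL1, NAP1L5, INPP5F, ZDBF2 and FAM50B, whose levels ran from 1.69 CPM (L3MBTL1) to 85.2 CPM (SGCE). A test that missed the threshold does not show equal levels.

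The 2 libraries that stood apart differed from their groups in many imprinted genes. Replicate 3 of PAX6-/- with ISL1 had 12 of 32 more than 2-fold above the mean of its partners and 5 more than 2-fold below, and replicate 4 of PDX1-/- with ISL1 had 12 above and 6 below its partner. In both, MAGEL2, a MAGE-family gene, was low (12.4 and 7.02 CPM, against 32.2 to 72.0 in the other 19 libraries), and SNRPN was high (194 and 179 CPM, against at most 91.9). GRB10 was 41.0 CPM in the first against 241 and 265 in its partners. DLK1 was 317 CPM and SLC22A18 101 CPM in the second against 30.1 and 17.1 in its partner. The share of mitochondrial counts moved with these differences and its part was not tested.

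**Figure D5:**
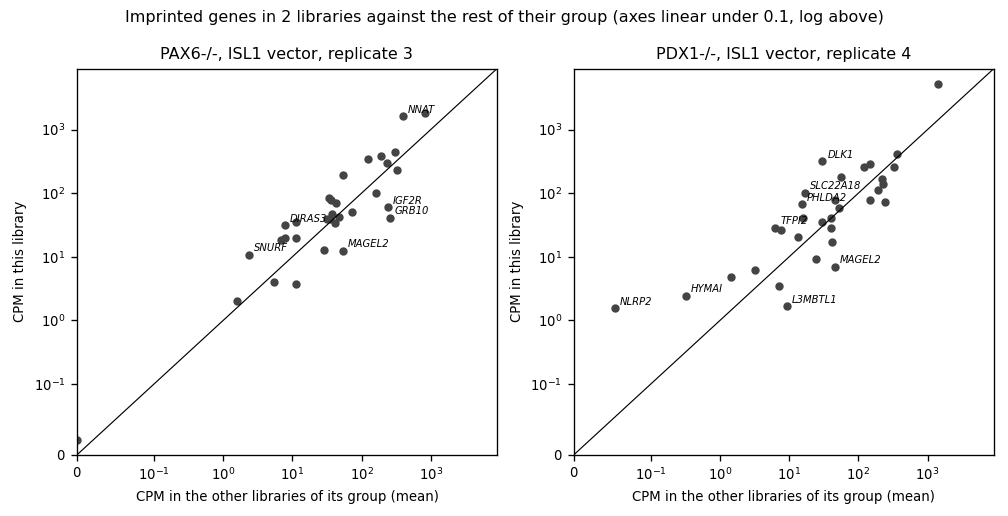
Each point is 1 of the 32 tested imprinted genes, with its CPM in the library named above the panel on the vertical axis and the mean CPM of the other libraries of that group on the horizontal axis. Axes are linear under 0.1 CPM and logarithmic above, the line marks equal values, and points off the line, such as NLRP2 and DLK1 in the right panel, differ between libraries of a group.

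A second list held 66 further genes reported as imprinted in at least some tissues, of which 63 were in the table and 55 were tested. Whether they are imprinted in these cells was not tested. Against WT with BFP, 4 rose and 2 fell in ISL1-/-, 2 rose and 4 fell in PAX6-/-, and 8 rose and 7 fell in PDX1-/-. For this and the lists below, the shares of all genes called in those comparisons were 5.59%, 5.51% and 9.68%. DLX5, a homeobox gene, rose in all of these, by log2 3.52 ± 0.79, 2.75 ± 0.76 and 4.08 ± 0.81 (adjusted p = 0.0131, 0.0421 and 0.00409), and GABRA5, a receptor subunit gene, rose by 2.94 ± 0.56 in ISL1-/- and 2.96 ± 0.56 in PAX6-/-. GNAS-AS1, antisense to GNAS, fell by 2.76 on the log2 scale in ISL1-/- (adjusted p = 0.00246). Its levels were low, at 0.0467 to 0.142 CPM in ISL1-/- with BFP and 0.505 to 0.756 in WT with BFP. Over all libraries it had 3 to 83 counts per library. TRIM61, a tripartite-motif gene, was 2.97 and 4.38 CPM in WT with BFP and 3.98 to 4.49 in ISL1-/- with BFP, and had 0 counts in the 3 libraries each of PAX6-/- and PDX1-/- with BFP (adjusted p = 0.00179 and 0.00105). INS, the insulin gene next to IGF2, fell by 5.46 in PDX1-/- (adjusted p = 0.00361) and its neighbour TH by 2.94 (adjusted p = 0.00619).

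Of the factors that write and keep imprints, such as DNA methyltransferases and ZFP57, 20 of 25 were tested, and the 1 called against WT with BFP was DNMT3B in PDX1-/-, a de novo methyltransferase that is also a marker of pluripotent cells (-1.71 ± 0.50, adjusted p = 0.0365). Of 23 genes that act with IGF2, 1 rose and 3 fell in ISL1-/-, 0 rose and 3 fell in PAX6-/-, and 0 rose and 4 fell in PDX1-/-. IGFBP4 and IGFBP7, which encode IGF-binding and related proteins, fell in all of them, IGFBP4 by 2.29, 2.23 and 3.62 and IGFBP7 by 2.95, 1.88 and 2.44 on the log2 scale, while IRS4, a receptor substrate, rose by 2.50 in ISL1-/-. Of 21 genes of the NOTCH pathway, to which DLK1 is related, 1 rose in ISL1-/- (DNER), 1 fell in PAX6-/- (HEY2) and 2 rose in PDX1-/- (DLL4 and HEY1, by 1.59 and 1.17). Pluripotent markers summed to 15.1 to 127 CPM over all libraries.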

How the data were processed

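The deposited table holds raw read counts per gene for 21 SMART-Seq v4 libraries. Alignment used STAR 2.7.11b and counting featureCounts 2.1.1 against GRCh38, per the submitters' processing notes. The annotation release, the strand setting and the handling of reads that match several genes are not given in the sources used here. Of 62700 gene IDs, 62699 were used, and all were named from a table of gene symbols. ANK2, whose entry is broken over 3 lines, was left out. The imprinted genes and the other gene lists were chosen with earlier results of these data known.

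Counts were tested with edgeR 4.0.16 in R 4.3.3 by the quasi-likelihood F test, with TMM library sizes, a filter on low counts (filterByExpr, minimum count 10, minimum total 15), 1 model of the 8 groups over all 21 libraries and no block. Benjamini-Hochberg adjustment ran over all 25884 genes tested, and every adjusted p is from this test at a threshold of 0.05 unless another tool is named. Fold changes are log2 with a prior count of 0.125 and a standard error. CPM are counts scaled to a TMM library size of 1 M, and 3 counts per library served as the floor. The standard errors come from the fitted model and include the spread between libraries, while the floors cover counting error only. Libraries held 36.8 to 60.2 M counts. In a test on simulated data for PDX1-/- over WT with BFP, 83.5% of 200 genes changed by log2 2 among 25171 genes were recovered, and 6.2% of calls were false. The changed genes were drawn from the better-expressed ones. The simulation held no spread particular to a gene and no libraries that stood apart, so these rates need not hold for the data.

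Values by library are given for imprinted genes called between genotypes and for DLK1, MEG3, H19, IGF2, CDKN1C, KCNQ1OT1, NNAT, PLAGL1, MEST, PEG10, SNRPN, GNAS and GRB10, and the others by range. Up to 4 genes of largest change are named per further list. CHCHD2 and LINC02864 were named from earlier results. Replicate numbers were taken from the sample descriptions. Same-numbered libraries deviated together in PAX6-/- between the vectors (correlations 0.155, 0.391 and 0.333). As in ISL1-/-, this is a hint of pairing from the data and not the design. The fit with the replicate block called 0 imprinted genes there too. Alternatives were RLE size factors, DESeq2 1.42.0, no filter, limma 3.58.1 voom with quality weights, replicate blocks, fits on the compared groups alone, and leaving out libraries.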

Additional observations from a re-analysis of the deposited data

Results flagged for a closer look

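The difference between the ISL1 and BFP vector groups was not the same in PDX1-/- as in WT for 2 imprinted genes, by the interaction term of the edgeR model. For H19 the difference of the log2 vector effects was 1.89, and for IGF2 it was 1.86. Both genes were higher with the ISL1 vector than with BFP in every PDX1-/- library (2 against 3). In WT the 2 libraries with each vector did not overlap either, with IGF2 at 145 and 123 CPM with BFP and 182 and 171 with ISL1. Of the 2 PDX1-/- libraries with ISL1, 1 was replicate 4, whose label was not tested. ISL1 RNA in PDX1-/- was 132 to 173 CPM with BFP and 138 and 313 with ISL1, the last in replicate 4. The H19 call was kept in 2 of 9 fits that left out a library of these groups, and that of IGF2 in 8 of 9. Neither was called in the fit on the compared groups alone.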

How the results depend on the processing

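Counts of imprinted genes called are given in 1 order: ISL1-/-, PAX6-/- and PDX1-/- against WT with BFP (4, 7 and 8), the same with ISL1 (2, 3 and 1), the vector in ISL1-/-, PAX6-/- and PDX1-/- (0, 0 and 9), PAX6-/- over ISL1-/-, PDX1-/- over ISL1-/- and PDX1-/- over PAX6-/- (2, 6 and 6), the PDX1-/- interaction (2) and any difference with BFP (14). Shares of all genes called are given above for this main fit and for most comparisons without the 2 libraries that stood apart. For the other settings, here and in the vector comparisons, no such share was taken. Their counts therefore cannot show whether imprinted genes were called more often than other genes. Limma voom with quality weights gave 14, 19, 19, 11, 13, 0, 2, 8, 1, 12, 17, 15, 1 and 25. Leaving out replicate 3 of PAX6-/- with ISL1 and replicate 4 of PDX1-/- with ISL1 gave 13, 20, 19, 11, 12, 8, 1, 2, 2, 9, 16, 15, 2 and 24. Fits on the compared groups alone gave 11, 16, 18, 12, 1, 0, 0, 0, 0, 8, 17, 10, 0 and 24. The replicate block by description number gave 6, 12, 13, 6, 7, 4, 0, 0, 2, 6, 9, 9, 1 and 17, and by title number no count beyond 1.5 times. DESeq2 gave 6, 5 and 3 for the comparisons with ISL1, 4 for PAX6-/- over ISL1-/- and 4 for the interaction, and omitting the filter gave 4 and 5 for ISL1-/- and PAX6-/- with ISL1 and 4 for PAX6-/- over ISL1-/-. RLE size factors moved no count beyond 1.5 times. Leaving out 1 library at a time gave 2 to 7, 1 to 11, 3 to 13, 1 to 7, 1 to 7, 0 to 15, and, for the vector in PDX1-/-, 2 to 20. It gave 1 to 5 for PAX6-/- over ISL1-/-, up to 10 for PDX1-/- over ISL1-/-, down to 2 for PDX1-/- over PAX6-/-, 0 to 19 for the interaction and down to 9 for any difference. The values of 15, 20 and 19 came without replicate 2 of PDX1-/- with ISL1, where replicate 4 alone stood for the group and was assumed to vary like the others. The vector effect in PDX1-/- turned for SLC22A18, to -0.26 with the block, -0.28 without both libraries and -0.30 without replicate 4, and for DLK1 to -0.011 without replicate 4. Over the fits that left out 1 library these 2 genes reached 2.25 and 3.37. In ISL1-/- between vectors, each library correlated best with its own number (0.183, 0.099 and 0.293), a hint from the data and not the design. The causes were not tested. Counts were too few to test 6 genes.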
